A study of Mus musculus with 8 samples.

Results

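Carbonic anhydrases are the enzymes that turn carbon dioxide and water into bicarbonate and a proton, and back. The 8 genes described here are Car1, Car2, Car3, Car4, Car6, Car8, Car12 and Car13. They were chosen with the difference between the groups in view, so that difference is described for them without a test. Every probe set whose single gene symbol in the platform annotation was a member was taken, which gave 18 probe sets of 45037 and 8 genes of 18193. In the shared locus on mouse chromosome 3, Car2 and Car13 were far lower in L-GMPs than in GMPs, by 19.9-fold and 8.13-fold. Car1 was lower by 3.48-fold with a wide spread between GMP arrays. Car12, which encodes a membrane enzyme, averaged 1.55-fold higher in L-GMPs in its brightest probe set, whose groups overlapped, and 1.79-fold higher in a second, whose groups did not.

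The arrays measured RNA of mouse cells purified by flow cytometry from bone marrow (BM). L-GMPs came from leukaemic mice whose genotype is labelled HoxA9+Meis1 AML, and GMPs came from mice labelled Normal, with 4 arrays in each group and the letters A to D as replicate names. GMP stands for granulocyte-macrophage progenitor, the marrow cell that gives rise to neutrophils and monocytes, and AML stands for acute myeloid leukaemia. The labels give no strain, age, promoter, number of animals or sorting antigens, and whether each array holds a different animal is not stated, so the spread between arrays and the p-values from it may be technical. Values are log2 of the deposited intensities, which had been made with RMA, a method that subtracts background, brings the arrays to a common scale and turns the probes of each set into 1 value. The lower quartile of an array lay at 3.65 to 3.75 and its median at 5.24 to 5.49, and since no detection calls were used, the size of a difference that reaches down to that quartile is uncertain. The arrays held bulk RNA, in which fewer cells of a type and less RNA per cell cannot be told apart.

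Arrays correlated at 0.983 to 0.994 within groups and at 0.967 to 0.974 between groups over all probe sets other than controls. Between 3′ and 5′ control probe sets, Gapdh differed by 1.24 to 1.55 log2 units on L-GMP arrays and by 1.46 to 1.76 on GMP arrays A to C, with 2.74 on GMP array D, and their part in the results was not tested. The genes named in the leukaemia's label did not give a clean check of it. The brightest probe set of Hoxa9 averaged 11.6 ± 0.74 in L-GMPs and 6.79 ± 0.05 in GMPs (SD, n = 4 each), whereas its other probe set was lower in L-GMPs by 6.66, and Meis1 was lower by 3.05. Which transcript parts these probe sets cover was not tested. Mpo, the myeloperoxidase of myeloid progenitors, averaged 13.24 ± 0.09 in L-GMPs and 13.63 ± 0.04 in GMPs, and Cd34, a surface antigen of progenitors, averaged 9.51 ± 0.56 in L-GMPs and 9.71 ± 0.25 in GMPs. Of the 13 measured GMP markers, 1 rose and 4 fell by limma at an adjusted p of 0.05 over all genes, where 12.1% of all genes passed. Among the 18 member probe sets the groups did not overlap in 6, 5 lower and 1 higher in L-GMPs. The share of all probe sets whose groups did not overlap was 17.1%, with 9.76% lower and 7.38% higher.

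**Figure D1:**
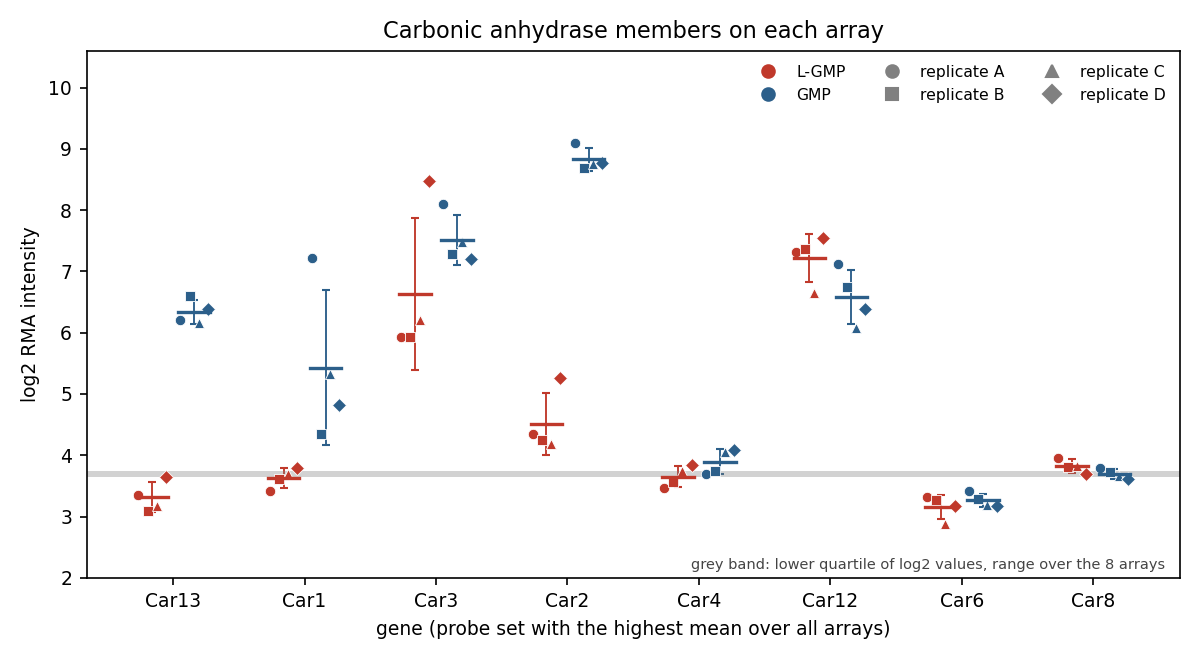
Log2 RMA intensity of the brightest probe set of each member on every array, L-GMPs in red left of GMPs in blue, with the mean (line) and SD (bars, n = 4 per group). Car13, Car1 and Car2 show no overlap between groups, while a single L-GMP array, D at 8.48, carries the overlap of Car3; the grey band is the range of the arrays' lower quartiles.

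The members differ by where the enzyme works. Car1, Car2, Car3 and Car13 encode cytosolic enzymes. Car2 is a fast enzyme known from red cells and from osteoclasts, where it supplies the protons that dissolve bone. Car4 is anchored to the outer face of the membrane by a lipid, Car12 spans the membrane with its active site outside the cell, and Car6 is secreted into saliva. Car8 is a related protein that has lost the catalytic activity and binds the inositol trisphosphate receptor. In blood, carbonic anhydrases are known mostly from red cells, where they speed the carriage of carbon dioxide.

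Car2 had log2 values of 4.35, 4.26, 4.18 and 5.26 on L-GMP arrays A to D, against 9.10, 8.68, 8.75 and 8.77 on GMP arrays A to D. All L-GMP arrays lay below the median of their array and all GMP arrays above it, and 3.42 log2 units separated the highest L-GMP array from the lowest GMP array. The means were 4.51 ± 0.51 in L-GMPs and 8.83 ± 0.19 in GMPs (SD, n = 4 each), a difference of -4.32 (SE 0.27, from the SDs of both groups). On the linear scale L-GMP arrays read 18.1 to 38.4 and GMP arrays 411 to 550.0. L-GMP array D stood above the other L-GMP arrays, and without it the difference was -4.57. Car2 has a single probe set under the rule, so no second probe set was compared.

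Car13 read 3.35, 3.09, 3.18 and 3.65 on the L-GMP arrays and 6.21, 6.59, 6.16 and 6.39 on the GMP arrays in its brightest of 3 probe sets. The gap between the groups was 2.51. Means were 3.31 ± 0.25 in L-GMPs and 6.34 ± 0.20 in GMPs, a difference of -3.02 (SE 0.16). Every L-GMP value lay under the lower quartile of its array, so in L-GMPs this probe set was at the dim end of the arrays and the size of the difference is uncertain. The second probe set was dimmer and also lower in L-GMPs without overlap, at 2.85 to 2.97 on L-GMP arrays against 3.45 to 4.53 on GMP arrays, a difference of -1.06 (SE 0.22). The third, below the lower quartile on all 8 arrays, differed by -0.50 (SE 0.30) with overlapping groups.

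Car1 read 3.42, 3.61, 3.70 and 3.80 on L-GMP arrays A to D, against 7.23, 4.35, 5.33 and 4.82 on GMP arrays A to D. All GMP arrays lay above all L-GMP arrays, with a gap of 0.55, and GMP array A stood far above the other GMP arrays. The means were 3.63 ± 0.16 in L-GMPs and 5.43 ± 1.26 in GMPs, a difference of -1.80 (SE 0.64). Without GMP array A it was -1.20. The L-GMP values lay close to the lower quartile of the arrays, 2 of them under it, and on the GMP side only array A lay above its median.

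Car3, an enzyme of low activity that is abundant in muscle and fat, had 4 probe sets. The brightest read 5.93, 5.92, 6.21 and 8.48 on L-GMP arrays A to D, against 8.10, 7.28, 7.47 and 7.20 on GMP arrays A to D. L-GMP arrays A, B and C lay below every GMP array, whereas L-GMP array D lay above every GMP array, so the groups overlapped. The means were 6.63 ± 1.24 in L-GMPs and 7.51 ± 0.41 in GMPs, a difference of -0.88 (SE 0.65), and -1.49 without L-GMP array D. The second probe set also had its highest value on L-GMP array D (5.35) and differed by -0.21 (SE 0.20). The third differed by -0.19 (SE 0.05) without overlap, with a gap of 0.04, and lay under the lower quartile on all 8 arrays, as did the fourth, which differed by -0.22 (SE 0.24).

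**Figure D2:**
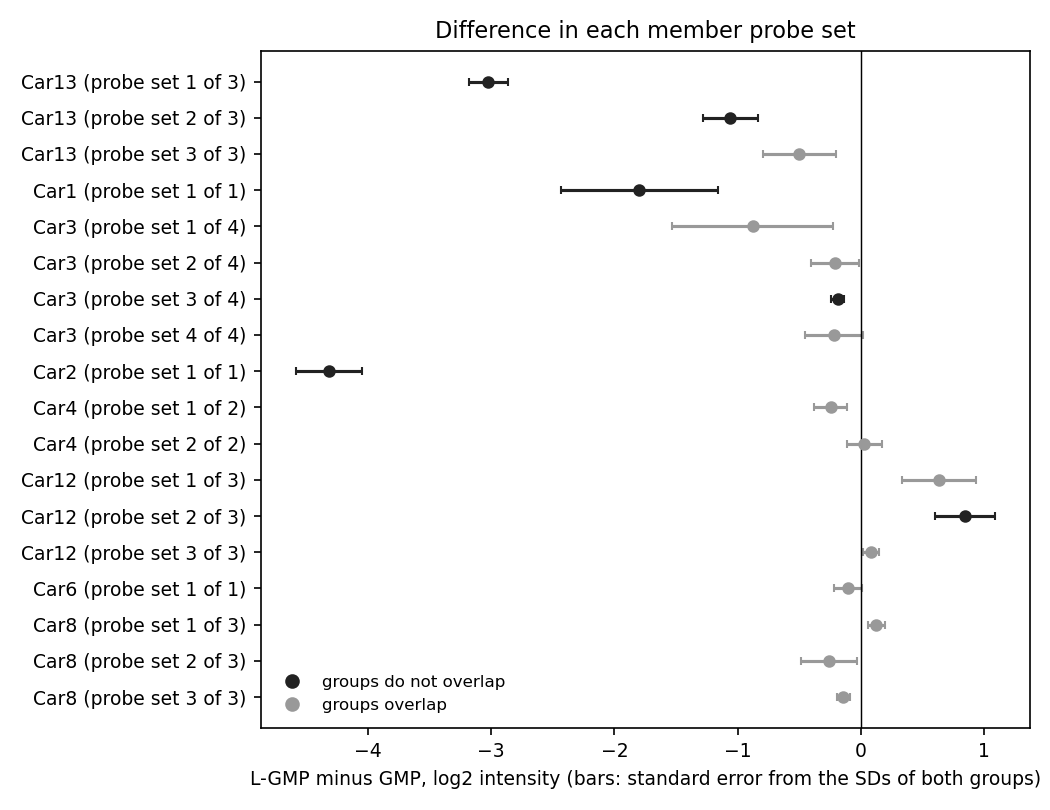
Difference between L-GMPs and GMPs (L-GMP minus GMP, log2 intensity) for each of the 18 member probe sets, with the SE from the SDs of both groups as bars and 1 as the brightest probe set of a gene. Black marks probe sets whose groups did not overlap: the brightest of Car2 (-4.32), Car13 (-3.02) and Car1 (-1.80), the second of Car13 (-1.06), the third of Car3 (-0.19) and the second of Car12 (0.84).

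These 4 genes lie side by side on chromosome 3 in the order Car13, Car1, Car3, Car2, and the RefSeq gene table lists 0 protein-coding genes between them. In their brightest probe sets, L-GMP array D was the highest L-GMP array for all 4, and GMP array A the highest GMP array for Car1, Car3 and Car2. Their nearest protein-coding neighbours, 3 on each side, were looked at after the members' values were seen and are given without a test. Of those 6 genes, 4 were measured. Lrrcc1, a centrosomal protein gene on the Car13 side, averaged 6.19 ± 0.11 in L-GMPs and 6.74 ± 0.16 in GMPs, and its groups did not overlap. E2f5, a cell cycle transcription factor, differed by -0.40 with overlap. Rbis, the neighbour of Car13, averaged 11.1 ± 0.03 in L-GMPs and 11.2 ± 0.10 in GMPs. Sirpb1a, on the Car2 side, differed by 0.01, at values under the lower quartile in both groups. All of these differences were under 1 in size, as was that of Car3, and those of Car2, Car13 and Car1 were over 1.

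**Figure D3:**
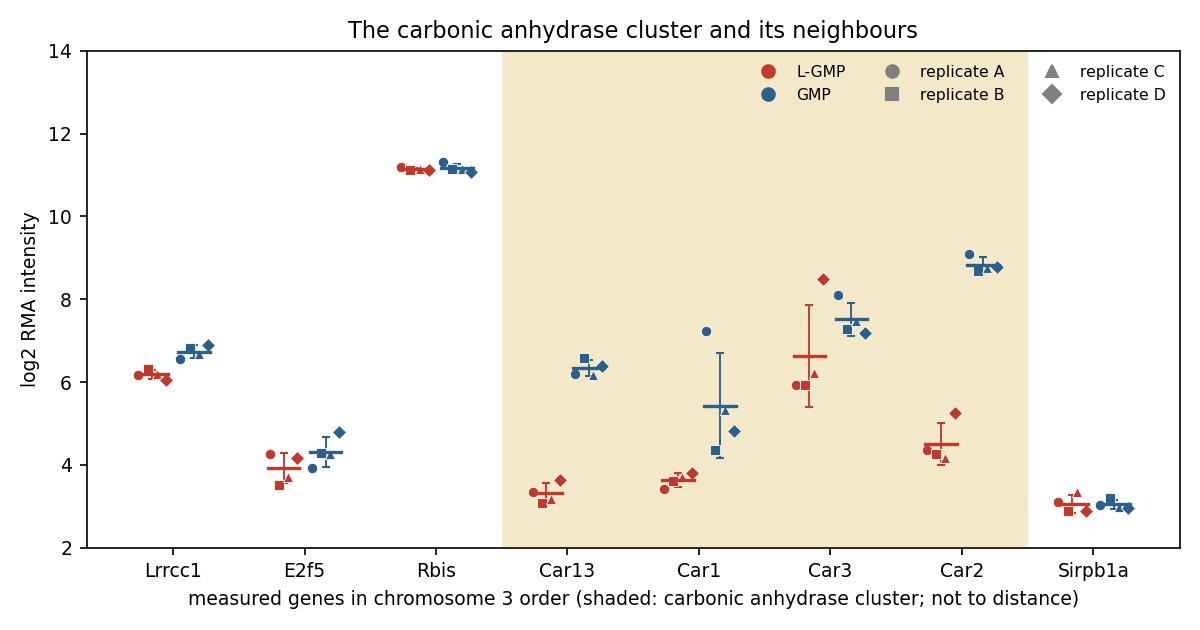
Log2 RMA intensity on every array for the 4 cluster genes (shaded) and their 4 measured protein-coding neighbours, in chromosome order and not to distance, L-GMPs in red left of GMPs in blue, with mean and SD (n = 4 per group). Car13, Car1 and Car2 are low in L-GMPs, while Rbis, next to Car13, has group means that differ by -0.03.

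Car12 was higher in L-GMPs in its brightest probe set on average, with 7.31, 7.37, 6.65 and 7.54 on L-GMP arrays A to D against 7.11, 6.74, 6.08 and 6.39 on GMP arrays A to D. L-GMP array C lay below GMP arrays A and B, so the groups overlapped. Means were 7.22 ± 0.39 in L-GMPs and 6.58 ± 0.45 in GMPs, a difference of 0.63 (SE 0.30), or 1.55-fold. The second probe set read 5.71, 5.98, 5.19 and 6.21 in L-GMPs and 4.61, 5.02, 5.07 and 5.01 in GMPs, higher in L-GMPs without overlap by 1.79-fold (difference 0.84, SE 0.24), with a gap of 0.12 between L-GMP array C and GMP array C. The third lay under the 10th percentile on all 8 arrays and differed by 0.08 (SE 0.06). CA12, the human counterpart, is known to respond to hypoxia. The RefSeq promoter table (GRCm38.p6) holds 3 of the 8 members, Car4, Car6 and Car12, and the 250 bases before the Car12 start are shown because Car12 alone among those 3 had a probe set whose groups did not overlap. They lie at chr9:66713436-66713685 on the plus strand, 5′ to 3′, and capitals mark the motif TGACAG, known for MEIS factors, whose upstream end lies 235 bases before the start.
Car12: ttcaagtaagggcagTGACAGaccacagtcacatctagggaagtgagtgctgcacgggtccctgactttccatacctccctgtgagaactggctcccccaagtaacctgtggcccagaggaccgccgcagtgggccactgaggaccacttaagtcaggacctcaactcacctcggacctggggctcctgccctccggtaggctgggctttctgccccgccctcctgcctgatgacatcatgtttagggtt
On either strand, TGACAG was found in 15.9% of the 32851 promoter windows of this length. ACGTG, the core bound by hypoxia-inducible factors, and the GATA motifs AGATAA and TGATAA were not found in this Car12 window. They were found in 16.6%, 9.99% and 7.94% of all windows. These matches describe letters in a window and not bound sites.

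The remaining members had small differences, with overlapping groups in every probe set. Car4 had 2 probe sets, at 3.65 ± 0.17 in L-GMPs and 3.89 ± 0.21 in GMPs (difference -0.24, SE 0.13) and at 3.75 ± 0.15 in L-GMPs and 3.72 ± 0.25 in GMPs (difference 0.03, SE 0.15). Car6 averaged 3.16 ± 0.20 in L-GMPs and 3.26 ± 0.11 in GMPs, under the lower quartile on all 8 arrays. Car8 differed by 0.12 (SE 0.07), -0.26 (SE 0.23) and -0.14 (SE 0.05) in its 3 probe sets, and in the second GMP array A read 3.37 against 2.48 to 2.57 on the other GMP arrays. These probe sets lie near or under the lower quartile, where a low value need not mean that the transcript is absent.

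Over all 18 member probe sets, 13 differences were below 0 and 5 above, and 4 were over 1 in size. Their median was -0.21, and -0.07 with each array centred on its median over all probe sets. The median of the 8 brightest probe sets was -0.56, beside 0.01 over all genes, each by its brightest probe set. Since the members were chosen from this contrast, these counts describe the choice. Of the 18, 7 lay under the lower quartile on all 8 arrays and 2 above the median on all 8, the brightest of Car3 and of Car12.

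Genes outside the family whose 8 centred values ran closest to Car2 were Tceal8, Ica1 and Ldhb, at root mean square distances of 0.315, 0.359 and 0.405 log2 units over the 8 arrays. Ldhb, the lactate dehydrogenase subunit common in heart and red cells, averaged 6.18 ± 0.17 in L-GMPs and 10.03 ± 0.20 in GMPs. Tceal8 averaged 4.66 ± 0.40 in L-GMPs and 9.10 ± 0.17 in GMPs, and Ica1 3.94 ± 0.16 in L-GMPs and 8.02 ± 0.21 in GMPs. The genes closest to Car13 were P2ry14, a receptor for nucleotide sugars, Plekha5 and Zfp820, at distances of 0.152, 0.157 and 0.198. P2ry14 averaged 3.13 ± 0.34 in L-GMPs and 5.93 ± 0.24 in GMPs. All 6 were lower in L-GMPs than in GMPs, and since the values were centred, the measure selects a like difference between arrays and not a like level. It used only the brightest probe set of each gene, and other probe sets differed in size. Those of Plekha5 differed by -0.20 and -0.99 and that of Zfp820 by -1.07. That of Ica1 differed by -2.69, and those of Ldhb by -4.90, -4.95 and -7.14.

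Markers of other cells that a marrow sort could hold moved with the groups and with single arrays, and their part in the members' values was not tested. For each list the level is summed here over the linear intensities of its genes. Of 24 measured erythroid markers, 4 fell in L-GMPs and 0 rose by limma (9 had an unadjusted p under 0.05), or 16.7% beside 12.1% of all genes. The 4 that fell are given next. Klf1, Alas2, Epor and Slc4a1, singled out after their values were seen, did not pass, with adjusted p from 0.127 to 0.973. Gata1, the erythroid and megakaryocyte transcription factor, fell by 1.68 (SE 0.13, adjusted p = 1.77e-05), and Hebp1, a haem-binding protein, fell by 2.41 (SE 0.22, adjusted p = 4.9e-05). Tspan33 fell by 1.24 (adjusted p = 0.00209), or fell by 0.81 as the mean of its 4 probe sets. Hbb-b2, a beta globin with near-identical copies, fell by 1.76 (SE 0.41, adjusted p = 0.0184), fell by 0.84 as the mean of its probe sets, and missed the threshold without L-GMP array D and GMP array A together (adjusted p = 0.0773). The erythroid sum was 4565 to 5022 in L-GMPs and 4659 to 5106 in GMPs. Hba-a2, an alpha globin, supplied most of it, with 11.6 ± 0.04 in L-GMPs and 11.4 ± 0.16 in GMPs. The sum therefore says little about how the other erythroid markers compare between groups. The median change of the 24 markers was -0.22, beside 0.01 over all genes.

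GMP array A, highest of all arrays for Car1, was also highest for the megakaryocyte list, whose sum was 900.2 to 1469 on L-GMP arrays and 3088 on GMP array A, with 1010 to 1887 for GMP arrays B to D. Itgb3, also on the osteoclast list, supplied most of the sum on each L-GMP array. It averaged 9.42 ± 0.54 in L-GMPs and 9.07 ± 0.53 in GMPs and did not pass by limma (adjusted p = 0.494). These sums therefore do not show how the other markers of the list compare between groups. Of 14 measured megakaryocyte markers, 5 fell in L-GMPs and 0 rose, or 35.7% beside 12.1% of all genes. Pf4, platelet factor 4, read 2.90, 4.55, 3.48 and 4.09 on L-GMP arrays, against 10.4, 7.20, 8.76 and 9.05 on GMP arrays, and fell by 5.10 (SE 0.57, adjusted p = 0.000229). GMP arrays A and B were the highest and the lowest GMP arrays for both Pf4 and Car1, while GMP arrays C and D ranked in opposite order. Vwf, the von Willebrand factor gene, read 7.25 on GMP array A and 5.11 on GMP array B, and Itga2b, an integrin of megakaryocytes, 8.12 and 7.27 on the same arrays. Rab27b, which also fell, was highest on GMP array D (6.74, with 6.14 on A). Gp5, which fell as well, was highest on A (4.19) but lowest on C (3.89). Of the 14 megakaryocyte markers 10 were highest among GMP arrays on A. Of the 24 erythroid markers 8 were, as many as on GMP array C, with 4 each on B and D. Ermap, an erythroid marker singled out after its values were seen, read 6.60 on GMP array A and 4.82 to 5.26 on the other GMP arrays. Hbb-b2 read 6.46 on GMP array C and 5.35 on A. The Car1 difference of -1.20 without GMP array A stands beside these values.

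**Figure D4:**
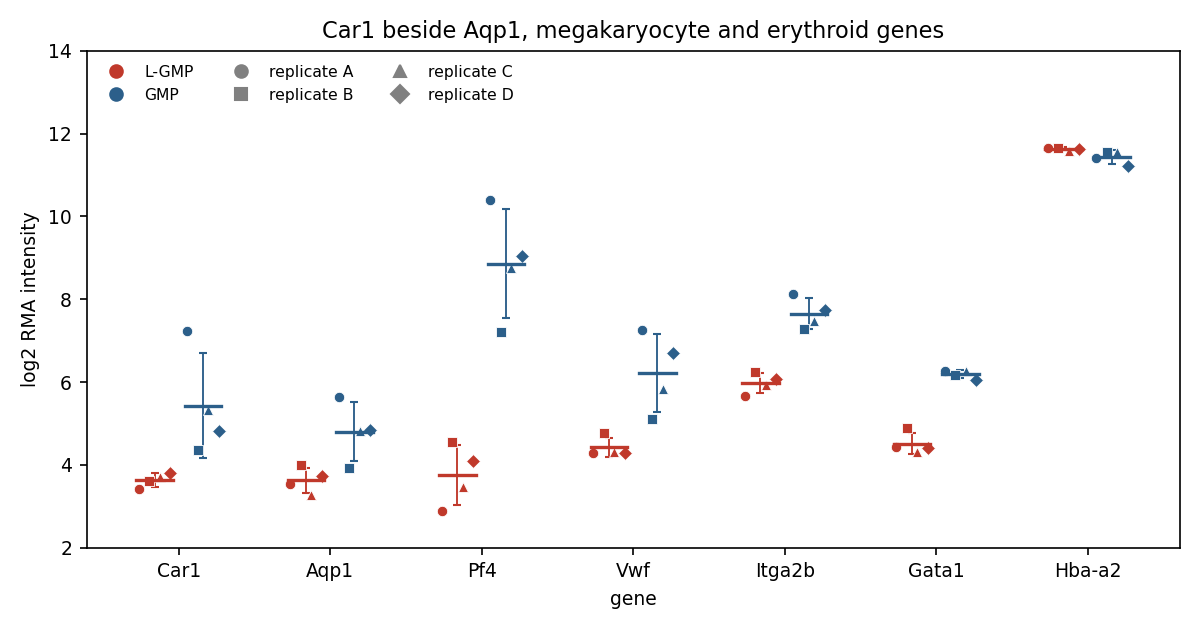
Log2 RMA intensity of Car1 and of Aqp1, 3 megakaryocyte genes and 2 erythroid genes on every array, L-GMPs in red left of GMPs in blue, with mean and SD (n = 4 per group). GMP array A (circle) is the highest GMP array for Car1, Aqp1, Pf4, Vwf and Itga2b, and GMP array B (square) the lowest for these 5, while Hba-a2 stays between 11.2 and 11.7 on all arrays. Rab27b and Gp5, megakaryocyte markers that also fell but ranked the GMP arrays otherwise, are not shown.

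L-GMP array D, highest of the L-GMP arrays for Car2, Car13, Car1 and Car3, was highest for the lymphoid list, with a sum of 871.3 against 569.1 to 590.5 on the other L-GMP arrays and 583.9 to 636.9 on GMP arrays. Vpreb1, a surrogate light chain of early B cells, carried that sum, at 8.83 there and 6.09 to 7.58 on the other L-GMP arrays. Without Vpreb1 the lymphoid sum of L-GMP array D was 417.3, within the 377.9 to 513.5 of the other L-GMP arrays, and of the 12 lymphoid markers 1 was highest among L-GMP arrays on D. By limma 0 of 12 lymphoid markers passed in either direction (1 had an unadjusted p under 0.05). Because Car3 is known from fat and muscle, 2 more lists were looked at after the values were seen. In L-GMP array D the sum of 9 adipocyte markers was 176.8 and that of 10 skeletal muscle markers 341.3, both the lowest of the 8 arrays. Adipocyte sums were 195.6 to 328.5 on the other L-GMP arrays and 183.6 to 215.1 on GMP arrays, an order that rested on Lpl, the lipoprotein lipase gene: without it they were 149.2 to 162.5 on L-GMP arrays, with 150.7 on D, and 138.7 to 161.1 on GMP arrays. Muscle sums were 374.4 to 457.5 on the other L-GMP arrays and 344.4 to 366.8 on GMP arrays.

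Other marker lists are given by their counts and sums, to be read beside the 12.1% of all genes called. Of 16 eosinophil, basophil and mast cell markers, 11 fell and 0 rose, and their sum was 1178 to 2005 in L-GMPs and 5153 to 11800.0 in GMPs. Of 12 stem cell and early progenitor markers 7 fell and 0 rose (sums 1175 to 1806 in L-GMPs and 2215 to 2554 in GMPs). Of 13 monocyte and macrophage markers 7 rose and 1 fell (sums 12490.0 to 18340.0 in L-GMPs and 7563 to 8189 in GMPs). Of 11 neutrophil markers 1 rose and 2 fell, with sums of 756.6 to 2369 in L-GMPs and 942 to 4398 in GMPs. Since Car2 is an osteoclast enzyme, 13 osteoclast markers were read beside it. Acp5, the tartrate-resistant acid phosphatase, fell by 1.79 (SE 0.20, adjusted p = 0.000227) and Clcn7, a lysosomal chloride transporter, rose by 0.71 (SE 0.14, adjusted p = 0.00768), or by 0.39 as the mean of its 3 probe sets, with no other osteoclast marker past the threshold.

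The other 8 carbonic anhydrases on the arrays were tested, as they are no members. They are what the choice of members left of the family, so their share of calls and median change can depend on that choice. Car14 rose and 0 fell (2 had an unadjusted p under 0.05), which is 12.5% of the list beside 12.1% of all genes, and the median change was 0.10. Car14, a membrane enzyme with its active site outside the cell, read 7.41 to 7.48 on L-GMP arrays, against 6.99 to 7.11 on GMP arrays. The groups did not overlap, and the rise was 0.40 (SE 0.09, adjusted p = 0.0141), or 1.32-fold. Car9, a membrane enzyme known as a target of hypoxia-inducible factor in human tumours, read 6.68, 7.18, 6.55 and 6.02 in L-GMPs and 7.38, 7.27, 7.31 and 7.15 in GMPs. L-GMP array B lay within the GMP range, the change was -0.67 (SE 0.20) and the adjusted p 0.0552 did not pass. Without L-GMP array B it was -0.86 with an adjusted p of 0.00564, and over all alternatives the adjusted p ran from 0.00564 to 0.128.

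The 250 bases before the starts of these genes are shown because Car14 passed the test and Car9 is a known hypoxia target. Capitals mark ACGTG, read here from the opposite strand as CACGT, and TGATAA. The Car14 window lies at chr3:95904686-95904935 on the minus strand and the Car9 window at chr4:43506776-43507025 on the plus strand (RefSeq, GRCm38.p6).
Car14: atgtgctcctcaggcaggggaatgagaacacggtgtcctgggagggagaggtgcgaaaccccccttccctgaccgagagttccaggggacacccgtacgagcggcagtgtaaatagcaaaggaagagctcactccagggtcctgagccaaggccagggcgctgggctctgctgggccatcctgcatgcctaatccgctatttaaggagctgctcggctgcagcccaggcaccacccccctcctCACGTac
Car9: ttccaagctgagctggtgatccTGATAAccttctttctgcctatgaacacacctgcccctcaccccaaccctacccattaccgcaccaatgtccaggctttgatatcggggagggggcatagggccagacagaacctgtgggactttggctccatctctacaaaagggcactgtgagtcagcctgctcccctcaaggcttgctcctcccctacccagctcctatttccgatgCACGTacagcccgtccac
The upstream end of CACGT lies 7 bases before the start in Car14 and 18 bases before it in Car9. That of TGATAA lies 228 bases before the Car9 start. On either strand, ACGTG was also found in the Car6 window and in a Car10 window, there 145 bases before the start. Car6 had overlapping groups and Car10 did not pass the test, so the match was not particular to Car14 and Car9. ACGTG was not found in the windows of Car4, Car5a, Car5b, Car7, Car11, Car12 and Car15.

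The other 6 carbonic anhydrases did not pass. The mitochondrial Car5a changed by 0.20 (SE 0.11, adjusted p = 0.271), with 5.15 ± 0.17 in L-GMPs and 4.95 ± 0.07 in GMPs and no overlap. The mitochondrial Car5b changed by -0.04 and the cytosolic Car7 by -0.07, and both changed sign when arrays were centred on their medians. The non-catalytic Car10 and Car11 changed by 0.07 and 0.17. Car15, a lipid-anchored enzyme, changed by 0.14 (adjusted p = 0.61).

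Bicarbonate made by carbonic anhydrases crosses membranes through transporters of the SLC4 and SLC26 families, of which 18 of 20 listed genes were measured. By limma 2 rose and 0 fell (6 had an unadjusted p under 0.05), or 11.1% beside 12.1% of all genes. Slc4a8, a sodium-driven exchanger of chloride for bicarbonate, read 9.80, 9.22, 9.92 and 9.25 on L-GMP arrays, against 6.16, 6.40, 6.48 and 6.09 on GMP arrays. The brightest of its 5 probe sets rose by 3.27 (SE 0.18, adjusted p = 7.58e-07). The other probe sets differed by 0.10 to 0.15, at group means of 2.54 to 4.15, near or under the lower quartile of the arrays. The mean over all 5 probe sets, which includes these dim ones, rose by 0.76. Slc26a11, a chloride and sulphate transporter, rose by 0.54 (SE 0.10, adjusted p = 0.00645), with 5.75 ± 0.06 in L-GMPs and 5.21 ± 0.14 in GMPs. Slc26a2, a sulphate transporter, changed by -0.42 (adjusted p = 0.137), and by -0.60 without GMP array A (adjusted p = 0.00966), where 4 genes of the list passed. As the mean of its probe sets Slc26a2 changed by -0.44 (adjusted p = 0.0159). Its dimmest probe set changed by -0.52 without overlap when every probe set was tested (adjusted p = 0.00988). The sum of the list was 1467 to 1829 in L-GMPs and 918.5 to 1168 in GMPs, but without Slc4a8 it was 848.0 to 960.9 in L-GMPs and 846.9 to 1084 in GMPs.

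**Figure D5:**
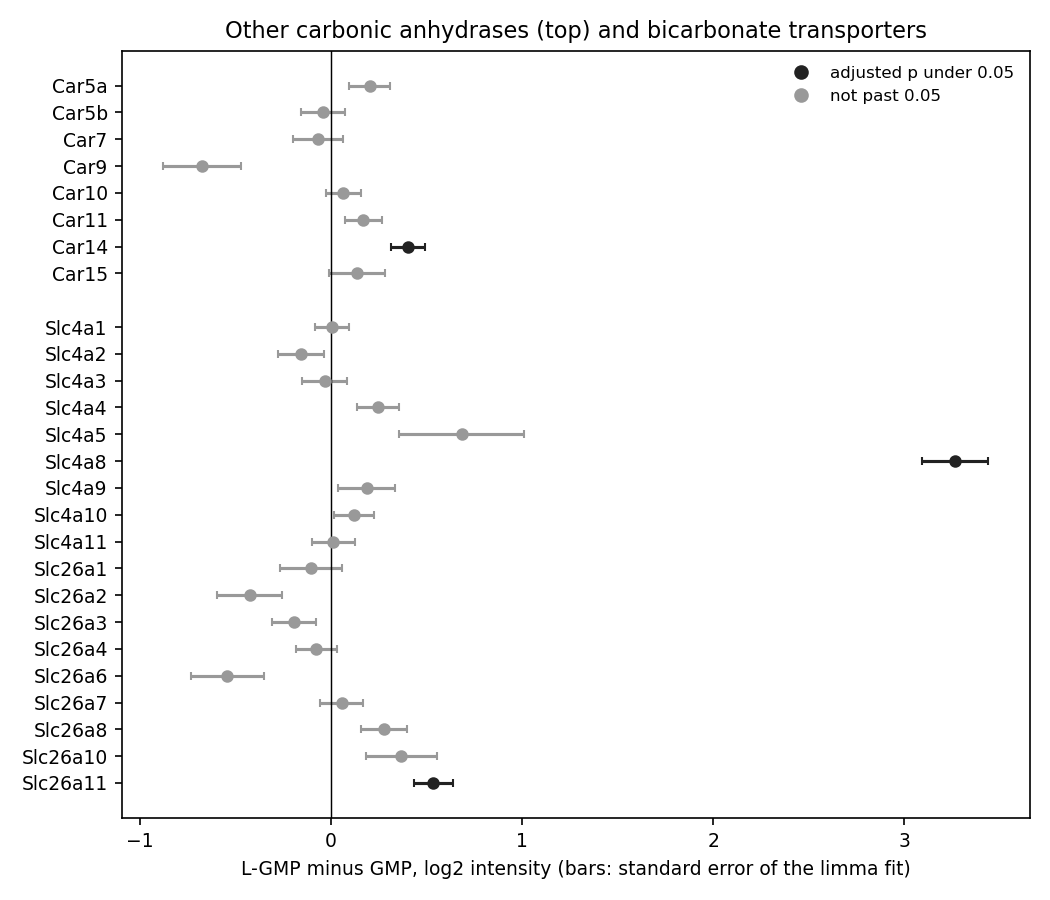
Change between L-GMPs and GMPs (L-GMP minus GMP, log2 intensity) with the SE of the limma fit for the other 8 carbonic anhydrases and the 18 measured bicarbonate transporters. Black marks an adjusted p under 0.05 over all genes: Car14 at 0.40, Slc4a8 at 3.27 and Slc26a11 at 0.54; Car9 at -0.67 is grey.

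Of 36 listed genes for proton, lactate and carbon dioxide transport, 33 were measured, and 1 rose and 3 fell, which is 12.1%, the same as over all genes. Atp6v1b2, a subunit of the vacuolar proton pump, rose by 0.53 (SE 0.11, adjusted p = 0.00854), with 10.05 ± 0.16 in L-GMPs and 9.52 ± 0.07 in GMPs, and missed the threshold as the mean of its probe sets (adjusted p = 0.0509). Aqp1, the water channel of red cells, fell by 1.18 (SE 0.30, adjusted p = 0.0302). It read 3.28 to 3.99 on L-GMP arrays and 5.65 on GMP array A, against 3.92 to 4.84 on the other GMP arrays, and its adjusted p reached 0.0789 over the alternatives. Slc16a7, a monocarboxylate transporter, fell by 0.61 (adjusted p = 0.0471) and Rhcg, an ammonia channel, fell by 0.35 (adjusted p = 0.0454), and the call was lost in 8 of 15 alternatives for Slc16a7 and in 11 of 14 for Rhcg. Counts of this list were 6 without GMP array A and 1 or 2 without L-GMP array A, B or C or GMP array B, C or D. With each array centred on its median, 6 genes of the list rose and 1 fell.

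Since Car9 and Car12 are known as hypoxia genes, 27 measured genes of the hypoxia response were read beside them, and 3 rose and 4 fell, or 25.9% beside 12.1% of all genes. Those that moved went both ways and the median change was -0.04. Mxi1, a repressor that opposes Myc, rose by 0.91 (SE 0.15, adjusted p = 0.0033) and Slc2a1, the glucose transporter GLUT1, rose by 0.86 (SE 0.15, adjusted p = 0.00447). Egln1, a prolyl hydroxylase of hypoxia-inducible factor, singled out after its values were seen, rose by 0.56. Ak4, a mitochondrial adenylate kinase, averaged 4.78 ± 0.25 in L-GMPs and 9.59 ± 0.16 in GMPs and fell by 4.82 (SE 0.14, adjusted p = 9.89e-09), or fell by 2.51 as the mean of its probe sets. Vegfa, the vascular growth factor, fell by 0.62 (adjusted p = 0.0135), and Bhlhe40, a transcription factor, fell by 0.58 (adjusted p = 0.0104). Hif1an, a hydroxylase that restrains hypoxia-inducible factor and likewise singled out later, fell by 0.48.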

How the data were processed

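RNA from 8 mouse arrays was used. Per the submitters' processing notes the authors made the values with RMA, and the deposited numbers are linear intensities between 3.54 and 29746.73, as the values themselves show. The RMA version, scan dates and batches are not given in the sources used here. Per the labels' protocols RNA was isolated with Trizol and purified over a column. The labels name a sense-strand whole transcript assay, whereas the probe sets belong to an array with probes near the 3′ end, which could not be settled here.

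Log2 was taken, and 64 control probe sets of 45101 were left out. Of the rest, 34945 had 1 gene symbol, 932 several and 9160 none. Entrez identifiers matched 34741 to RefSeq's gene table (GRCm38.p6), and 0 symbols changed. No build was named with the values, so the array's genes and probe sets are given no coordinates, and those of the promoter windows are RefSeq's. A gene was represented by its brightest probe set, judged by the mean over the 8 arrays (18193 genes). Groups came from the sample titles.

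Members are described by mean, SD, range and overlap, with a standard error (SE) from both groups' SDs and no test. Other genes were tested with limma 3.58.1 in R 4.3.3 (lmFit and eBayes on group, 2-sided), with Benjamini-Hochberg adjustment over 18193 genes at 0.05, and their SE is that of the fit. The fit was tested on simulated data. The members, gene lists and alternatives were chosen with earlier results of these data known. The naming rule covers members, other carbonic anhydrases, up to 5 genes past the threshold and the highest-mean gene of each list, Hoxa9, Meis1 and 3 genes most like each of Car2 and Car13. The text names only some of these, and marks genes outside the rule. Alternatives were median centring, quantile normalization, leaving out the dimmest 25% of genes, averaging the probe sets of a gene, testing every probe set, a trended robust prior, the replicate letter as a block, a pseudocount of 16 for members, and each array left out. Leaving out both L-GMP array D and GMP array A was chosen after seeing the data. The number of arrays limits the precision.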

Additional observations from a re-analysis of the deposited data

Results flagged for a closer look

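In 5 of 52 groups of 4 arrays that were examined for the carbonic anhydrase genes, a single array stood apart from the other 3, its gap to the nearest divided by the whole range exceeding 0.829. Chance alone gives this in about 1 in 20 groups. In L-GMPs, array D was the high one for Car3 (8.48, others 5.92 to 6.21) and for Car2 (5.26, others 4.18 to 4.35). In GMPs, array A was the low one for the second Car12 probe set (4.61, others 5.01 to 5.07). GMP array A was the high one for the second Car8 probe set (3.37, others 2.48 to 2.57) and for Car5b (4.15, others 3.73 to 3.79), both dim.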

How the results depend on the processing

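The brightest probe sets of Car2, Car13, Car1, Car3 and Car12 kept their direction under all 12 alternatives for members. A pseudocount of 16 gave -3.58 for Car2 and -1.90 for Car13, Car3 ran to -1.49 without L-GMP array D, and Car1 ran from -2.16 without GMP array B to -1.13 with the pseudocount. The second Car4 probe set changed sign without L-GMP array B or D or GMP array B or D, and Car6 changed sign under median centring. With that centring the median change of all genes was 0.15, against 0.01 as deposited, and the calls split into 2161 higher and 923 lower in L-GMPs, against 870 higher and 1323 lower as deposited. Quantile normalization gave 1252 higher and 1279 lower.

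When every probe set was tested (45037 tests), 4921 probe sets were called. Genes called in all numbered 1760 with the replicate block. With single arrays left out they numbered 1411 (without GMP array B, and 1425 without GMP array D) to 2388. Among the other carbonic anhydrases 2 passed, Car9 being added, without the dimmest 25% of genes, with the mean of probe sets, with the trended robust prior and with the replicate block, and 1 to 2 with single arrays left out. Bicarbonate transporters numbered 4 under quantile normalization and without L-GMP array D and GMP array A together, and 2 to 4 with single arrays left out. Acid and carbon dioxide genes numbered 7 under median centring, 1 with the replicate block, and 1 to 6 with single arrays left out. For the hypoxia list 17 of 62 probe sets passed when every probe set was tested, and 7 to 9 genes with single arrays left out. Erythroid genes stayed at 4 to 6. Same-letter arrays deviated from their group means with correlations of -0.07 to 0.10, and 1 of 4 letters had arrays that correlated best with each other, so the letters were not taken to pair samples.

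Of the 69 genes other than members that the naming rule covers, not all of them named in the text, 52 passed, of which 42 kept their call and sign in every alternative and 9 lost the call in at least 1. The sign reversed for Hoxa9 with the mean of its probe sets (-0.92), where its 2 probe sets oppose each other. Genes that had not passed reversed as well: Car5b gave 0.10 under median centring, 0.088 with the mean of probe sets, 0.035 with both arrays out, and -0.087 to 0.055 with single arrays left out. Car7 gave 0.073 under median centring, 0.033 under quantile normalization, and -0.16 to 0.026 with single arrays left out. Pgk1, a glycolytic hypoxia gene, gave 0.10 under median centring, 0.082 with the mean of probe sets, and -0.12 to 0.046 with single arrays left out. Car15 gave -0.044 and Vpreb1 -0.31 with both arrays out, Vpreb1 -0.012 to 0.90 and Cd34 -0.38 to 0.023 with single arrays left out. The cause of these reversals was not tested. Signal limits the dim probe sets of Car4, Car6 and Car8, which lie near the arrays' lower quartile.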
